A study of Mus musculus with 6 samples.

Results

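The Period genes *Per1*, *Per2* and *Per3*, the cryptochrome genes *Cry1* and *Cry2* and the clock repressor gene *Ciart* were followed in astrocytes and pericytes of the mouse amygdala. These 6 genes were taken by name from the 32285 genes of the expression tables, and the list was drawn up with earlier results of these data known. The adjusted p-values given here are therefore not independent evidence. Those between groups set differences against the spread between mice, and those between the classes against the spread between pooled libraries. The cells were selected on the unique molecular identifiers (UMIs, counts of captured transcripts) of 4 other genes. Of 13546 barcodes, 8757 held at least 20 UMIs of the glutamate transporter genes *Slc1a2* and *Slc1a3* together with at most 3 of *Vtn* and *Rgs5* and were taken as astrocytes, and 2260 held at least 10 UMIs of the mural cell genes *Vtn* and *Rgs5* with at most 5 of *Slc1a2* and *Slc1a3* and were taken as pericytes. The remaining 2529 barcodes were in neither class.

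By the labels, the cells came from male wild-type C57BL/6N mice. The study's methods name its wild-type mice as young adult C57BL/6NCrSlc and speak of both sexes across the experiments. By the methods, the mice were anaesthetized 90 min after the start of the behavioural paradigm. The dissociated cells were then sorted with ACSA2, an antibody against the sodium pump subunit ATP1B2. Non-shocked mice (NoFC) explored the chamber, FC mice received foot shocks in it, NoFR mice were shocked and then stayed in the home cage until the following day, and FR mice were shocked and returned to the chamber on the following day for recall. For NoFR mice, which had no recall session, the methods do not say from when the 90 min were counted. Behaviour was run in the light phase, and neither the labels nor the methods state the hour at which each mouse was taken. Inhibitors of transcription and translation were present while the tissue was dissociated. Mice of several groups were pooled in each of 3 libraries and told apart by antibody hashtags. A cell was given to a mouse when its top hashtag had at least 10 UMIs and at least 3 times the next, which assigned 1024 pericytes and 335 astrocytes to the 16 listed mice, 4 in each group. Each group had 2 mice in library 1. Library 2 had no NoFR mouse (2 of FC and 1 each of NoFC and FR), and library 3 had no FC mouse (2 of NoFR and 1 each of NoFC and FR).

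PER and CRY proteins form the repressive arm of the circadian clock: BMAL1 and CLOCK switch their genes on through E-box sequences, and the proteins later return to the nucleus and inhibit that pair. *Per1* and *Per2* are also induced directly by cAMP signalling and by glucocorticoid hormones, *Per3* is a more peripheral member, and *Ciart* encodes CHRONO, a further repressor of BMAL1 and CLOCK. The clock runs in astrocytes and in the mural cells of blood vessels, where these transcripts rise and fall over the day.

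Upstream sequences are shown for members whose levels are compared below, because E-boxes, cAMP response elements and D-boxes are the sequences through which the clock, cAMP and the PAR bZIP factors (DBP, TEF and HLF) act on such genes. RefSeq windows of 250 bases before to 50 bases after a gene start (build GRCm38.p6) held 5 of the 6 genes, *Per2* having no entry, and *Per1* had 2 starts. In each line, read 5′ to 3′ on the strand of the gene, capitals mark CACGTG (the E-box), TGACG or its complement CGTCA (the core of the cAMP response element) and TTATGTAA (a D-box). The windows are Per1 at chr11:69098699-69098998 and at chr11:69099902-69100201 on the plus strand, Per3 at chr4:151044616-151044915 on the minus strand, and Ciart at chr3:95882179-95882478 on the minus strand.
Per1, upstream start: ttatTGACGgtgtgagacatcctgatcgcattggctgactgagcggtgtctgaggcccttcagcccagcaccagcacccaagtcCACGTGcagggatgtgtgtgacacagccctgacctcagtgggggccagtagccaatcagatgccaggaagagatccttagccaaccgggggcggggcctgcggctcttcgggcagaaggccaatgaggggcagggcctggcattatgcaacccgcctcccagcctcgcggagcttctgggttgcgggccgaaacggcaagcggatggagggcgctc
Per1, downstream start: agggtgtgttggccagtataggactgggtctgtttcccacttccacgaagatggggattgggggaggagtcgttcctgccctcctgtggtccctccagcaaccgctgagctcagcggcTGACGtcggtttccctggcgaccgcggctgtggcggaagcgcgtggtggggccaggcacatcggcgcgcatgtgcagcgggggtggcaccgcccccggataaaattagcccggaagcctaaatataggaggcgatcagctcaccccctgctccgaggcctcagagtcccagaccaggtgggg
Per3: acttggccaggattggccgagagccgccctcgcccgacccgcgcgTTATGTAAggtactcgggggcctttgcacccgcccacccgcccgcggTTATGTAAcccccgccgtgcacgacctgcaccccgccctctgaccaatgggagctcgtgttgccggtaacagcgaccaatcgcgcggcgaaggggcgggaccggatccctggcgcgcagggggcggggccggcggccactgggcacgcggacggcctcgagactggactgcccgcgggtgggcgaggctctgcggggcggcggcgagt
Ciart: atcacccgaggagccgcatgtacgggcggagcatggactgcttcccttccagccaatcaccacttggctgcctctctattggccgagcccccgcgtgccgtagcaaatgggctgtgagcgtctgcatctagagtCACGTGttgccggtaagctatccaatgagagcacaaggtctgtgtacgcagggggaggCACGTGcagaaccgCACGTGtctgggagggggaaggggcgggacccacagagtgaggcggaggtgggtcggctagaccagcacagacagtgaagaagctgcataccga
*Ciart* held 3 E-boxes, whose first bases lay at -116, -58 and -44 from the start. *Per1* held 1 E-box at -166 of the upstream start and the cAMP element core at -246 of the upstream and -132 of the downstream start. *Per3* held 2 D-boxes, at -205 and -158, and neither of the other letters. Of the windows not printed, *Cry1* held 1 E-box at -60 and 1 cAMP element core at -8, and *Cry2* held 1 cAMP element core at -209. Among all 32851 windows, searched on both strands, 7.15% held the E-box, 20.8% the cAMP element core and 0.938% the D-box. These are letter matches and describe no measured binding.

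The submitters' labels call all sorted cells astrocytes, and the classes were checked against marker genes. Summed over all barcodes of a class, 10 astrocyte markers, *Slc1a2* and *Slc1a3* among them, stood at 19640 CPM (UMIs of a gene scaled to a total of 1000000 per sum) in astrocytes and 931 CPM in pericytes, of which *Atp1b2*, the gene of the sorted antigen, made up 676 CPM. The 8 pericyte markers, *Vtn* and *Rgs5* among them, stood at 28292 CPM in pericytes and 76.7 CPM in astrocytes. Both lists hold genes that set the classes, so part of each contrast was fixed by the selection. Pericytes also held 709 CPM of 5 smooth muscle markers, 246 CPM of 5 perivascular stromal markers and 148 CPM of 6 endothelial markers. Astrocytes held 1226 CPM of 5 markers of oligodendrocyte precursor cells (*Pdgfra*, *Cspg5*, *Vcan*, *Olig1* and *Gpr17*), against 13.1 CPM in pericytes. Only 4 of these 5 genes had any UMI in astrocytes, and likewise 4 in pericytes. *Pdgfra* is also among the stromal markers, which together came to 22.6 CPM in astrocytes. Which of the other precursor markers made up the sum was not examined. The median depth was 9891 UMIs in astrocytes and 5006 in pericytes. Of the 13528 barcode sequences, 18 occurred in more than 1 library.

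Between the classes, summed over whole libraries, *Per1* and *Per2* stood higher in pericytes, *Per3* and *Cry2* stood higher in astrocytes, and *Cry1* and *Ciart* were not separated. *Per1* was at 26.5 ± 1.78 CPM (SD, n = 3 libraries) in astrocytes and 58.4 ± 6.48 CPM (n = 3) in pericytes. *Per2* was at 28.2 ± 1.18 and 48.1 ± 12.5 CPM in the same order (SD, n = 3). For both genes every library of pericytes lay above every library of astrocytes. For neither gene did this order hold in every group of mice. In NoFR mice the *Per2* mean was 21.9 CPM in pericytes and 42.1 ± 26.4 CPM in astrocytes (SD, n = 4 mice, scaled within each class). This astrocyte mean rests on 2 to 6 UMIs per mouse. The *Per1* mean of NoFR mice was 45.1 CPM in pericytes and 55.0 ± 51.0 CPM in astrocytes (SD, n = 4 mice). That astrocyte mean rests on 2 to 4 UMIs per mouse and includes NoFR mouse 4 at 131 CPM. In NoFC, FC and FR mice the means of both genes were higher in pericytes.

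The *Per3* level was 74.4 ± 5.04 CPM in astrocytes and 32.6 ± 7.66 CPM in pericytes (SD, n = 3 libraries). *Cry2*, the cryptochrome with the wider gap between the classes, was at 114 ± 2.52 and 44.4 ± 3.36 CPM (SD, n = 3). Here every library of pericytes lay below every library of astrocytes. *Cry1* was at 21.5 ± 0.870 and 22.7 ± 1.71 CPM (SD, n = 3), and *Ciart* was at 8.64 ± 0.740 and 11.5 ± 4.18 CPM (SD, n = 3), with overlapping libraries for both.

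With scaling for composition, the log2 difference of pericytes over astrocytes was 0.92 for *Per1* (standard error 0.0761), 0.55 for *Per2* (0.103), -1.39 for *Per3* (0.0816) and -1.58 for *Cry2* (0.0674). It was -0.12 for *Cry1* (standard error 0.105), opposite in sign to the plain CPM, and 0.19 for *Ciart* (0.168). The median difference over all genes tested was -0.10. In edgeR's quasi-likelihood test 4 of the 6 genes were called, where 79.7% of all 15361 genes tested were called, so that the count is given as a description of classes that had been selected on other genes. The lower of the 2 class levels was between 38.7% (*Cry2*) and 93.7% (*Cry1*) of the higher. For comparison, 7 astrocyte genes (*Aqp4*, *Gja1*, *Aldoc*, *Mlc1*, *Gjb6*, *S1pr1* and *Ntsr2*) reached between 0.839% and 2.13% of their astrocyte level in pericytes, and the pericyte genes *Kcnj8*, *Abcc9* and *Higd1b* reached at most 0.0510% of their pericyte level in astrocytes. The remaining astrocyte marker outside the selection, *Atp1b2*, the gene of the sorted antigen, reached 83.1% (676 CPM in pericytes, 814 CPM in astrocytes).

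**Figure D1:**
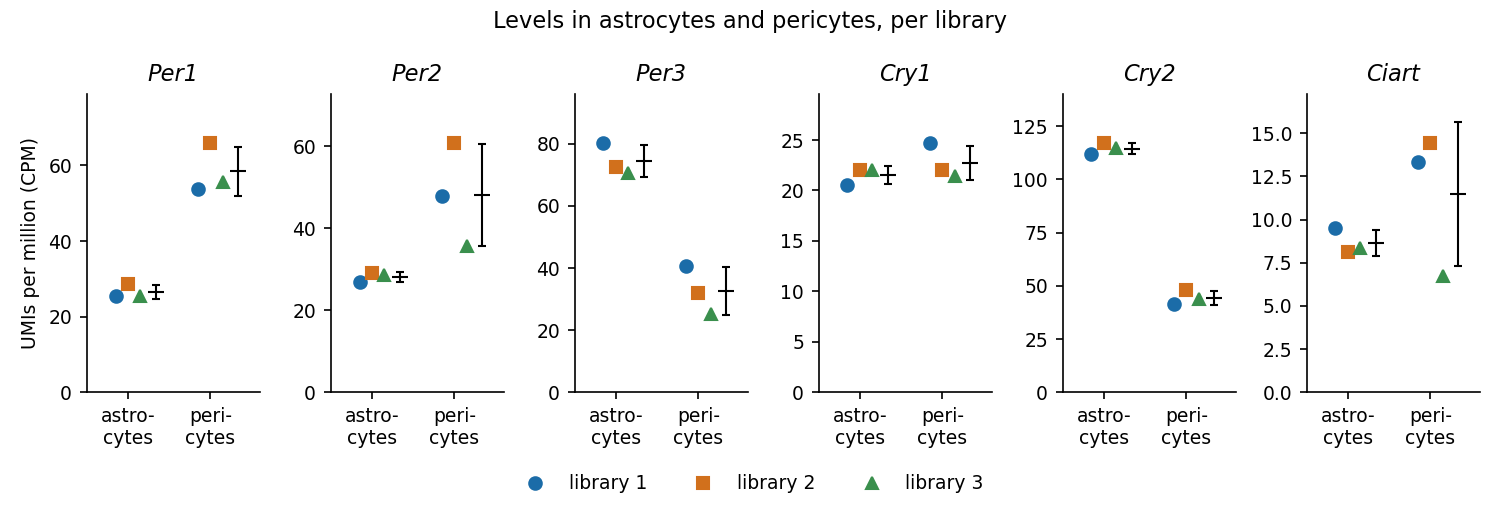
Level of each gene in CPM (vertical axes starting at 0) in all astrocytes and all pericytes of each library, with the mean and SD of 3 libraries in black. *Per1* and *Per2* lie higher in pericytes, *Per3* and *Cry2* lie lower, and the libraries overlap for *Cry1* and *Ciart*.

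The share of cells with a UMI of a member moved with depth. *Per1* was found in 22.6% of astrocytes (95% Wilson interval 21.8% to 23.5%) and 25.1% of pericytes (23.4% to 27.0%), and *Per2* in 22.9% (22.0% to 23.8%) and 18.7% (17.1% to 20.3%). After every cell had been thinned to 3000 UMIs, which left out 541 astrocytes and 157 pericytes, the shares were 7.38% and 15.98% for *Per1* and 8.57% and 11.8% for *Per2*, so that the order for *Per2* turned to that of its CPM. Thinning moved *Per3* from 48.5% and 14.3% to 20.8% and 9.08%, and *Cry2* from 62.6% and 18.6% to 28.8% and 11.4%, astrocytes staying higher. *Cry1* came to 5.92% and 6.09%, and *Ciart* to 2.64% and 3.38%, from 17.6% and 9.82% and from 7.85% and 4.87%. These intervals and shares cover counting error only.

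In pericytes, the Period transcripts were lowest in NoFR mice. *Per2* and *Per3* were each higher in NoFC mice than in NoFR mice (3.49-fold and 3.20-fold, ratio of group means), *Per1* was 1.98-fold higher, and *Cry2* was 1.42-fold higher without passing the test. The recall group lay between, or level with the non-shocked group, depending on the gene. All levels by mouse are TMM-scaled CPM of the summed UMIs of 36 to 110 pericytes, listed in the order of mice 1 to 4.

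*Per2*, a core repressor without which daily rhythms are disturbed, stood at 73.2, 75.0, 74.3 and 82.5 CPM in NoFC mice, 51.4, 66.5, 63.3 and 89.8 CPM in FC mice, 11.2, 28.1, 24.9 and 23.4 CPM in NoFR mice and 39.5, 94.7, 82.0 and 42.1 CPM in FR mice. The highest NoFR mouse lay below the lowest mouse of each of the other groups. The UMIs behind these values were 20 to 44 per NoFC mouse and 3 to 10 per NoFR mouse. From NoFC to NoFR, *Per2* fell by 1.71 in log2 units (standard error 0.337, adjusted p = 0.000747, edgeR's quasi-likelihood test over 6543 genes). From FC to NoFR it fell by 1.46 (standard error 0.370, adjusted p = 0.0343, edgeR). Against NoFR, FR mice were 1.48 higher (standard error 0.362), with an adjusted p of 0.0601 in edgeR's test. All FR mice lay above all NoFR mice, as they did for 130 of the 6543 genes tested. In order of means, NoFC (76.3 ± 4.24 CPM, SD, n = 4), FC (67.7 ± 16.1, n = 4) and FR (64.6 ± 28.0, n = 4) did not differ beyond their spread, and NoFR stood at 21.9 ± 7.40 CPM (n = 4).

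*Per3* stood at 50.7, 56.3, 50.7 and 61.1 CPM in NoFC mice, 45.3, 66.5, 51.6 and 24.9 CPM in FC mice, 14.9, 16.9, 24.9 and 11.7 CPM in NoFR mice and 62.0, 23.7, 10.7 and 22.7 CPM in FR mice. Every NoFR mouse lay below every NoFC mouse and below every FC mouse (24.86 against 24.94 CPM at the closest), while FR mice 2, 3 and 4 lay below the highest NoFR mouse and FR mouse 1 lay above all NoFC mice. Against NoFC, *Per3* of NoFR mice fell by 1.70 in log2 units (standard error 0.385, adjusted p = 0.00514, edgeR's quasi-likelihood test), and from FC to NoFR it fell by 1.63 (standard error 0.421, adjusted p = 0.0396, same test). FR mice were at a log2 difference of -1.03 from NoFC (standard error 0.346, adjusted p = 0.419, edgeR). The group means ran from NoFC (54.7 ± 5.04 CPM, SD, n = 4) through FC (47.1 ± 17.2) and FR (29.8 ± 22.3) to NoFR (17.1 ± 5.61). The mice of neighbours in that order overlapped, and no neighbours were called apart. The log2 difference of FR from FC was -0.96 (standard error 0.367, adjusted p = 0.850, edgeR).

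*Per1*, which is rapidly induced by external signals, stood at 64.8, 71.3, 96.3 and 125 CPM in NoFC mice, 66.5, 64.4, 79.7 and 59.9 CPM in FC mice, 44.7, 28.1, 29.8 and 77.8 CPM in NoFR mice and 67.6, 85.2, 39.2 and 51.8 CPM in FR mice. NoFR mouse 4 lay above the lower NoFC mice, so that the groups overlapped. *Per1* fell by 1.11 in log2 units from NoFC to NoFR (standard error 0.285, adjusted p = 0.0236, edgeR's quasi-likelihood test). The log2 difference of NoFR from FC was -0.80 (standard error 0.325, adjusted p = 0.453) and that of FR from NoFC was -0.63 (standard error 0.261, adjusted p = 0.608), neither passing the edgeR test. In order, the means were 89.4 ± 27.5 CPM in NoFC (SD, n = 4), 67.6 ± 8.52 in FC, 61.0 ± 19.9 in FR and 45.1 ± 23.0 in NoFR, with overlap between all neighbours.

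The *Cry2* level was 50.7, 52.5, 54.0 and 58.1 CPM in NoFC mice, 51.4, 62.3, 58.6 and 59.9 CPM in FC mice, 22.4, 50.6, 39.8 and 38.9 CPM in NoFR mice and 56.4, 61.6, 53.5 and 45.4 CPM in FR mice. The NoFR mice all lay below the NoFC mice, the closest at 50.61 against 50.70 CPM. The log2 difference of NoFR from NoFC was -0.53 (standard error 0.311, adjusted p = 0.658, edgeR), that from FC was -0.65 (standard error 0.335, adjusted p = 0.692), and that of FR from NoFC was -0.013 (standard error 0.277, adjusted p = 0.996).

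*Cry1* and *Ciart* were too low to pass the filter on counts and were therefore not among the 6543 genes tested. *Ciart* gave 11, 5, 17 and 7 UMIs in NoFC mice, 14, 9, 5 and 5 in FC mice, 0, 0, 3 and 1 in NoFR mice and 0, 1, 4 and 1 in FR mice. Its mean level was 25.0 ± 5.81 CPM in NoFC (SD, n = 4), 24.6 ± 13.0 in FC, 2.84 ± 3.59 in NoFR and 5.56 ± 6.13 in FR. Every NoFR mouse lay below every NoFC and every FC mouse, and every FR mouse lay below every NoFC mouse. Among the 6543 tested genes, 108 had FR mice wholly below the NoFC mice. The mice with no UMI allow up to 10.4 (NoFR 1), 15.99 (NoFR 2) and 15.7 (FR 1) in CPM without TMM scaling, the level of 3 UMIs. With no filter on low counts, *Ciart* had an adjusted p of 0.0235 for NoFR against NoFC (edgeR), 0.145 for NoFR against FC and 0.369 for FR against NoFC. *Cry1* gave 8 to 16 UMIs per NoFC mouse, 7 to 12 per FC mouse, 1 to 8 per NoFR mouse and 3 to 7 per FR mouse, at mean levels of 29.5 ± 5.24, 27.6 ± 7.51, 15.8 ± 9.004 and 17.6 ± 6.28 CPM (SD, n = 4 each). NoFR mouse 1, at 26.1 CPM, lay within the NoFC range of 24.5 to 36.6 CPM.

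**Figure D2:**
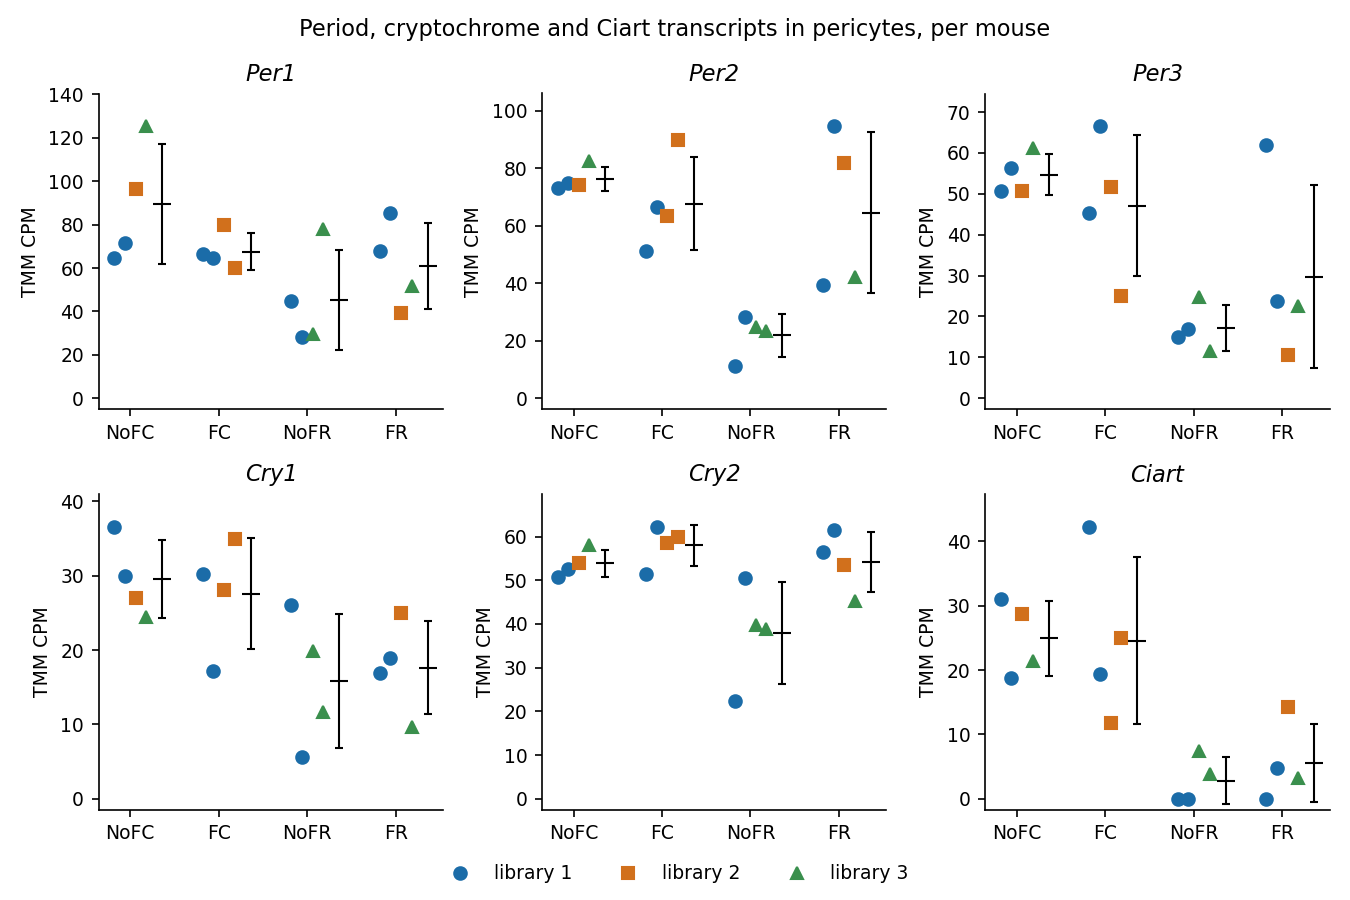
Level of each gene in pericytes of each mouse in TMM-scaled CPM (vertical axes), by group, with symbols for the 3 libraries and the mean and SD of 4 mice in black. *Per2*, *Per3*, *Cry2* and *Ciart* lie lower in all 4 NoFR mice than in all 4 NoFC mice, *Cry2* only barely (50.61 against 50.70 CPM). Of all genes tested, which leave out *Ciart*, 2.55% do so. The FR mice lie above the NoFR mice for *Per2* and spread from 10.7 to 62.0 CPM for *Per3*.

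Counted over the list, 3 of the 4 members tested in pericytes were called for NoFR against NoFC, each lower in NoFR, where 72 genes were called in all, 1.1% of those tested in either direction and 0.627% lower in NoFR. For NoFR against FC, 2 members were called, both lower in NoFR, where 0.504% of genes were called in either direction and 0.336% lower in NoFR. None of the 4 was called for FC against NoFC (0% of genes called, 297 at an unadjusted p under 0.05), FR against NoFC (0.0459%), FR against FC (0%, 314 at an unadjusted p under 0.05) or FR against NoFR (0.138%). DESeq2 called no member for any of these either. Of the 4 tested members, *Per2*, *Per3* and *Cry2* had NoFR mice wholly below the NoFC mice, as had 2.55% of all tested genes, and wholly below the FC mice, as had 2.66%. The NoFR and NoFC samples recur in several of these pairs, so the pairs are not independent of each other.

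**Figure D3:**
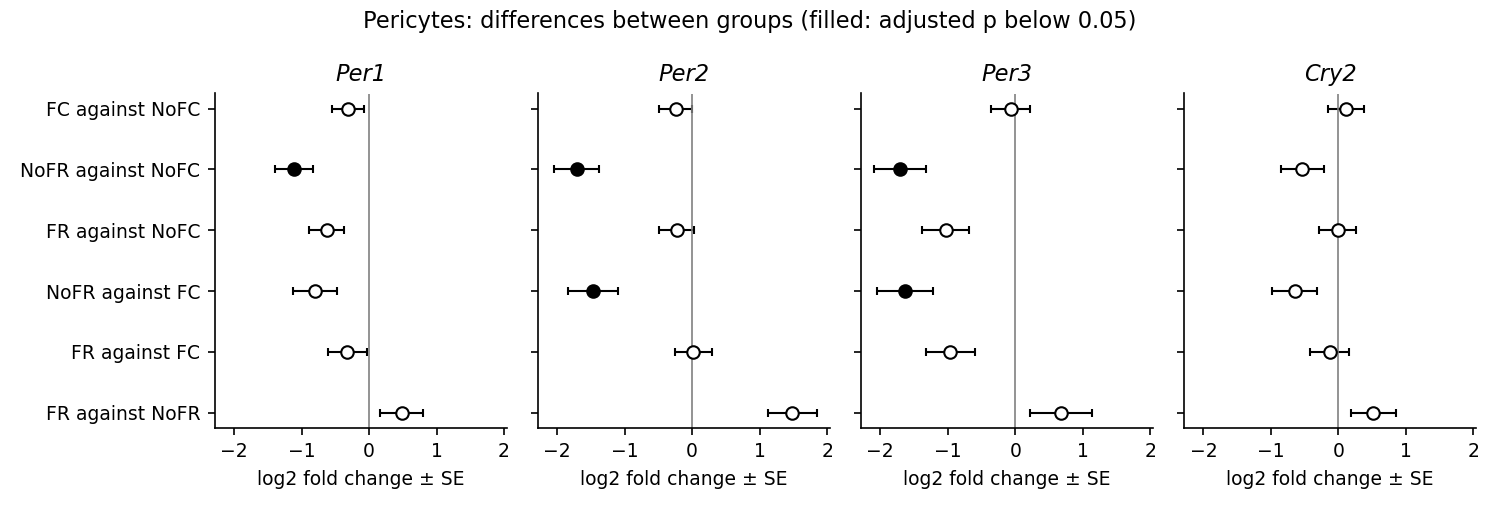
Log2 fold change with its standard error (horizontal axis) between each pair of groups in pericytes for the 4 members tested, filled where the adjusted p of edgeR's quasi-likelihood test is below 0.05. The filled points are the falls of *Per1*, *Per2* and *Per3* from NoFC to NoFR and of *Per2* and *Per3* from FC to NoFR.

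The same differences were present inside single libraries. In library 1, with 2 mice of each group, *Per2* averaged 19.6 CPM over the NoFR mice against 74.1 for NoFC, 59.0 for FC and 67.1 for FR mice, and in library 3 it averaged 24.1 CPM over the NoFR mice against 82.5 in the NoFC and 42.1 in the FR mouse. *Per3* was at 53.5 and 15.9 CPM in NoFC and NoFR mice of library 1, and at 61.1 and 18.3 CPM in library 3. *Per1* was at 68.0 and 36.4 CPM, and at 125 and 53.8 CPM, in the same order. FC and NoFR mice shared only library 1, where *Per3* stood at 55.9 CPM in FC and 15.9 CPM in NoFR.

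The *Per2* call for NoFR against NoFC was kept when each of the 16 mice was left out in turn (highest adjusted p = 0.0488, edgeR). That of *Per3* was lost without NoFC 4 or NoFR 1 (adjusted p = 0.0978 and 0.0654), and that of *Per1* without NoFC 3, NoFC 4, NoFR 1, NoFR 2 or NoFR 3 (edgeR, adjusted p between 0.0577 and 0.511). For NoFR against FC, *Per2* lost its call in 8 of the 16 fits (without FC 2, FC 4, NoFC 3, NoFC 4 or any NoFR mouse, adjusted p up to 0.339) and *Per3* in 8 (without FC 2, FC 3, FR 3, NoFC 1, NoFC 4, NoFR 1, NoFR 2 or NoFR 4, adjusted p up to 0.251), all in edgeR. DESeq2 called *Per2* alone for NoFR against NoFC (adjusted p = 0.0103), with *Per3* at 0.0527 and *Per1* at 0.199.

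Depth and markers of other cell types are given beside these differences, and their part in them was not tested. The median UMIs per cell of a mouse ran from 5033 to 5549 in NoFC, 4917 to 5348.5 in FC, 4566 to 5178 in NoFR and 4797 to 5293 in FR mice. The summed pericyte markers had means of 28987, 28717, 27692 and 27730 CPM in that order. Astrocyte markers ranged from 875 to 975 CPM in NoFC and from 973 to 1050 CPM in NoFR mice, and endothelial markers reached 488 CPM in 1 FR mouse against at most 172 CPM in the other groups. Smooth muscle markers, all 5 of which had UMIs in pericytes, ranged from 698 to 1044 CPM in NoFC, 587 to 931 in FC, 565 to 1146 in NoFR and 492 to 1349 in FR mice. Without the 289 assigned pericytes that held 5 or more smooth muscle UMIs, which left 735, *Per2* kept its call for NoFR against NoFC (log2 difference -1.47, adjusted p = 0.0392, edgeR). *Per3* and *Per1* kept differences of -1.77 and -1.23 there but not the call (adjusted p = 0.0889 and 0.0829, edgeR), and no member was called for NoFR against FC, where *Per2* came to -0.92 (adjusted p = 0.616, edgeR) and *Per3* to -1.59 (adjusted p = 0.384). For FR against NoFR, *Per2* came to 0.69 there in place of 1.48 (adjusted p = 0.861, edgeR).

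Other clock genes and genes of hormone response were read from 5 lists. In pericytes, 3 of the 4 tested genes of the PAR bZIP and repressor list were called lower in NoFR than in NoFC. They were *Dbp* (log2 change -2.13, adjusted p = 1.49e-10), *Tef* (-1.63, 7.14e-08) and *Hlf* (-1.01, 5.75e-07), all output factors of the clock that bind D-boxes. The median log2 change over the list was -1.71, against -0.0021 over all genes. That median lies below the change of *Tef*, so the remaining tested gene was also lower in NoFR, without a call. In the list of the positive limb and the REV-ERB and ROR loop, *Nr1d1* fell by 1.15 (adjusted p = 1.61e-07) and *Nr1d2* fell by 0.74 (0.00731), both encoding REV-ERB repressors, and the other 3 tested genes were not called and the list median was -0.16. None of 9 tested kinases, ligases and partners of PER and CRY was called (median 0.051). These p-values are from edgeR's quasi-likelihood test over all 6543 genes.

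Of 7 tested glucocorticoid-responsive genes, 4 were called lower in NoFR than in NoFC in pericytes (median of the list -0.93). They were *Zbtb16* (log2 change -3.47, adjusted p = 9.71e-14), *Fkbp5* (log2 change -2.12, adjusted p = 0.00663), *Klf9* (log2 change -0.93, adjusted p = 2.39e-07) and *Tsc22d3* (log2 change -1.22, adjusted p = 0.0176), all in edgeR's test. None of 6 tested immediate early and CREB-responsive genes was called (median -0.19). The same lists had calls in the same direction for NoFR against FC, with 3 PAR bZIP genes, 3 glucocorticoid-responsive genes and *Nr1d1*. From NoFR to FR, *Dbp*, *Hlf*, *Nr1d1*, *Klf9* and *Zbtb16* rose (by 1.35, 0.73, 0.74, 0.83 and 2.81, adjusted p at most 0.0344, edgeR), and *Dbp* was the only list gene called for FR against NoFC, at a log2 difference of -0.78 (adjusted p = 0.0411). No list gene was called for FC against NoFC or FR against FC.

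**Figure D4:**
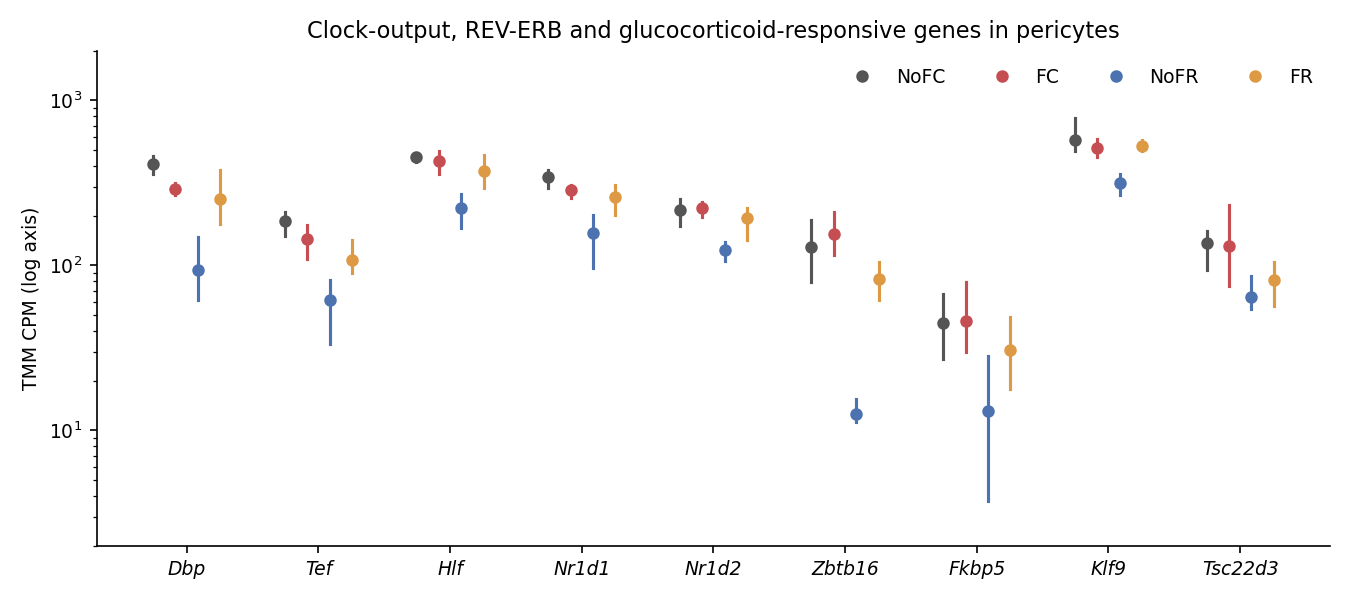
Mean level of 9 called list genes in pericytes, in TMM-scaled CPM on a log axis, by group, with lines from the lowest to the highest of 4 mice. Each of the 9 genes has its lowest mean in NoFR mice, with *Zbtb16* at 12.6 CPM in NoFR against 129 CPM in NoFC. The genes were picked by calls in these same data, each with a call in which NoFR was lower, so this order partly follows from the selection.

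Across the 16 mice, the genes whose pericyte levels ran most like a member's were found by Pearson correlation of log2 CPM after the mean of each library had been subtracted. Mice share libraries and groups, so these values only describe likeness. For *Per2* they were *Nr1d1* (r = 0.930), *Tef* (0.892) and *Cry2* (0.844), each a clock gene. *Per1* was nearest to *Dbp* (r = 0.827), the stress-response factor gene *Nfe2l2* (0.813) and *Gatm* (0.812), *Per3* to *Ctsa* (0.874), *Slc30a10* (0.839) and *Sdc3* (0.822), and *Cry2* to *Manbal* (0.887), *Serinc3* (0.868) and *Cpm* (0.852). Between the Period genes themselves r was 0.565 for *Per1* with *Per2*, 0.623 for *Per1* with *Per3* and 0.527 for *Per2* with *Per3*. In the 11 mice with enough astrocytes, *Per3* was nearest to *Hook3* (r = 0.856), the glutamate receptor gene *Gria1* (0.853) and *Kdm2a* (0.823), and *Cry2* to *Itsn1* (0.984), *Myo9a* (0.983) and *Ctnnd1* (0.978). Astrocyte *Cry2* stood at 24.4 CPM in FR mouse 1, on 1 UMI in 5 cells, and at 93.4 to 149 CPM in the other mice. How far these *Cry2* correlations rest on that mouse was not tested.

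In astrocytes no member was called between groups, and the precision was much lower than in pericytes. Strict hashtag calls left 11 mice with at least 5 astrocytes, among them 2 NoFC and 2 FC mice, and FC mouse 1 alone held 159 of the 335 cells. Only *Per3* and *Cry2* passed the filter among 3390 genes. *Per3* was at 104 and 83.0 CPM in the NoFC mice, 86.4 and 102 in FC, 97.5, 163, 64.5 and 65.4 in NoFR and 73.3, 72.6 and 82.9 in FR mice. The NoFR mice spanned the range of the other groups. The log2 difference of NoFR from NoFC was 0.13 for *Per3* (standard error 0.577, adjusted p = 0.991, edgeR) and -0.24 for *Cry2* (standard error 0.541, adjusted p = 0.982), and no member was called in any pair. The share of genes called was 0.0295% for FC and for FR against NoFC, 0.0885% for NoFR against NoFC and 0% for the other 3 pairs (89 to 118 genes at an unadjusted p under 0.05, edgeR). DESeq2 called no member in astrocytes either.

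A looser hashtag call (at least 5 UMIs and 2 times the next) gave 1402 astrocytes in all 16 mice, 14 to 535 per mouse. Over all astrocytes the median was 4 UMIs of the top hashtag and 2 of the next, against 18 and 3 in pericytes. The looser call is therefore close to the hashtag background and may hold wrongly assigned cells, whose share was not tested. *Per2* then stood at 20.7 ± 10.5 CPM in NoFC mice (SD, n = 4), 27.4 ± 2.16 in FC, 27.1 ± 5.43 in NoFR and 33.8 ± 5.06 in FR. *Per3* stood at 67.1 ± 8.69, 76.5 ± 15.1, 71.7 ± 7.64 and 92.9 ± 43.2 CPM, and *Per1* at 31.6 ± 5.83, 33.9 ± 23.5, 39.5 ± 31.8 and 36.2 ± 24.4 CPM (SD, n = 4 each, same order). For none of these Period genes was the NoFR mean below the NoFC mean. With the looser call and no filter on counts, the log2 difference of NoFR from NoFC was 0.17 for *Per2* (standard error 0.413), 0.072 for *Per3* (0.284) and, opposite in sign to its plain means, -0.14 for *Per1* (0.395), each with an adjusted p of 1 in edgeR's test.

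Whether the group differences of pericytes differed from those of astrocytes was tested in the 11 mice with both classes. For NoFR against NoFC the difference between the classes was -1.75 for *Per2* (standard error 0.896), -1.52 for *Per3* (0.712), -2.28 for *Per1* (1.01) and -0.44 for *Cry2* (0.628), each with an adjusted p of 1 over 7444 genes (edgeR). None of these 4 members was called in any pair, where 0.0134% of genes were called for FC and for FR against NoFC and 0% for the other 4 pairs (180 to 353 genes at an unadjusted p under 0.05). Among the latter were *Per1* and *Per3* for NoFR against NoFC and for NoFR against FC, and *Per2* for FR against NoFR. A difference between pericytes and astrocytes in how the groups differ was therefore not shown.

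Members barely inside and outside the limits of the selection had these levels, given without a test. Astrocytes with 20 to 24 UMIs of the transporter genes (219 cells) held 45.4 CPM of *Per3* and 113 CPM of *Cry2*, and 333 barcodes with 15 to 19 held 47.3 and 63.8 CPM. Pericytes with 10 to 12 UMIs of *Vtn* and *Rgs5* numbered only 23, at a median depth of 2035 UMIs. They held 70.1 CPM of *Per2*, 0 CPM of *Cry1* and 0 CPM of *Ciart*. The 25 barcodes with 7 to 9, at a median depth of 1970 UMIs, held 65.6, 16.4 and 49.2 CPM in the same order. With so few and shallow cells, each of these levels rests on few UMIs. Pericytes whose top hashtag had 10 to 12 UMIs (153) held 44.6 CPM of *Per2* and 35.1 CPM of *Per3*, and those with 7 to 9 (112) held 33.1 and 35.1 CPM.

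In the GRCm38 annotation *Per1* (ENSMUSG00000020893) lies at chr11:69095217-69109960 and *Per2* (ENSMUSG00000055866) at chr1:91415982-91459324, and no annotated gene overlaps either. *Per3* (ENSMUSG00000028957), at chr4:151003652-151044665 on the minus strand, overlaps *Camta1* on the same strand, so its counts are uncertain as far as the 2 genes share reads. *Cry2* (ENSMUSG00000068742, chr2:92403646-92434043) and *Ciart* (ENSMUSG00000038550, chr3:95878503-95882251) each overlap 1 annotated gene of the opposite strand, and *Cry1* (ENSMUSG00000020038, chr10:85131700-85185064) overlaps none.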

How the data were processed

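Amygdala cells of 16 listed mice were measured by droplet single-cell RNA sequencing in 3 libraries with antibody hashtags. The authors deposited raw UMI counts per gene and barcode, hashtag counts in the same tables, and a list that pairs hashtags with mice. The labels name Cell Ranger 3.0, the file headers name version 7.0.0, and the reference was mm10 with GENCODE annotation. No source used here states whether intronic reads were counted. The members and gene lists were chosen with earlier results of these data known.

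Counts were summed per mouse and class (at least 5 cells) and tested with edgeR 4.0.16 in R 4.3.3 (quasi-likelihood, TMM scaling, filterByExpr, library as a covariate, Benjamini-Hochberg adjustment over all genes, adjusted p under 0.05). Classes were compared on library sums with the library as a block and without the 4 selecting genes, and the class by group term was fitted with the mouse as a block. DESeq2 1.42.0, RLE scaling, no filter, no library term, a looser hashtag call, the study's barcode filter (at least 100 genes, under 6% mitochondrial UMIs), at least 15 cells and leaving out each mouse were alternatives. Named list genes passed that threshold in any pair, at most 12 in order of p, and for likeness each member's 3 highest correlations are given (log2 CPM, prior count 2). Scripts were tested on simulated data. The mice's separate housing or litters are not given, so p-values of group differences set them against the spread between these mice only. Those of the class comparison rest on the pooled libraries. Library totals were 31700569 to 42350059 UMIs, and mouse sums in pericytes 187654 to 629179. Cells whose top hashtag is paired with no mouse (538 pericytes, 111 astrocytes) were left out of the comparisons between groups. They stayed in the library sums of the class comparison, as did cells without a hashtag call. Doublets were not called beyond the class and hashtag limits.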

Additional observations from a re-analysis of the deposited data

Results flagged for a closer look

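*Per1* in the astrocytes of NoFR mouse 4 stood at 131 CPM, far from the other 3 NoFR mice at 21.5 to 39.0 CPM. It rests on 4 UMIs in 9 cells, whose median depth of 3203 UMIs was the lowest of the NoFR mice. This was 1 of 30 groups of mice looked at, and the 95% limit used marks about 1 in 20 groups by chance.

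Pericytes carrying a hashtag that the list pairs with no mouse also held the members. With hashtag 11 of library 3, 78 pericytes held 35.1 CPM of *Cry1* and 54.8 CPM of *Cry2*, barely above the highest NoFC mouse in plain CPM (34.6 and 54.5 CPM). Those NoFC values rest on 13 UMIs of *Cry1* (NoFC mouse 1) and 19 of *Cry2* (NoFC mouse 4), and margins this small were not tested against counting error. For *Cry2*, FC mice 2, 3 and 4 (58.7, 55.7 and 56.1 CPM) and FR mouse 2 (57.6 CPM) were higher still, and for *Cry1* no listed mouse was. These 78 pericytes belong to no known group and entered no comparison between groups. They were counted in the library sums of the class comparison.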

How the results depend on the processing

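Of the member counts, that of NoFR against NoFC in pericytes (3) came to 1 with DESeq2 and 1 without smooth muscle barcodes, an alternative chosen after seeing the data, to 2 with the looser hashtag call, where *Per1* lost its call (log2 difference -0.89, adjusted p = 0.0583, edgeR), and to 4 with no filter on low counts, which added *Ciart*, and ran from 1 to 3 when each mouse was left out. That of NoFR against FC (2) came to 0 with DESeq2 and 0 without smooth muscle barcodes, and ran from 0 to 2 without each mouse. That of FR against NoFR (0) came to 1, *Per2*, with no filter on low counts, with no replicate block (no library term), with the looser hashtag call and with the study's barcode filter, and ran from 0 to 1 without each mouse. It was 0 with DESeq2 (*Per2* adjusted p = 0.385) and without smooth muscle barcodes, where the *Per2* difference was 0.69 (adjusted p = 0.861, edgeR). Summed per mouse, the class comparison called 2 members, the only ones tested, in place of 4. With fewer cells or mice the sums are smaller, and otherwise the cause was not tested. Over all genes, NoFR against NoFC called 72 genes, 39 with DESeq2 and 48 without smooth muscle barcodes, and NoFR against FC called 33, 17 with DESeq2, 53 with the looser call and 65 with no replicate block.

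Signs turned only for differences that were not called in the fits reported above. In pericytes, FR against NoFC ran from -0.48 to 0.020 for *Per2* when each mouse was left out, positive only without FR 4, and for *Cry2* from -0.093 to 0.12, positive without FR 4 and NoFC 4 (0.032), and was 0.027 without smooth muscle barcodes. *Ciart* between the classes ran from -0.0085 to 0.43 when each library was left out, and was called at the upper end, without library 3 (adjusted p = 0.0280, edgeR). In astrocytes, NoFR against NoFC gave -0.18 for *Per3* with the study's barcode filter, and from -0.25 (without NoFR 2) to 0.37 without each mouse, negative also without NoFC 1 (-0.099), and for *Cry2* 0.063 with the looser call, 0.077 with the looser call and no filter, 0.18 with no minimum of cells, and from -0.58 to 0.29 without each mouse, positive without NoFC 1 and FR 4 (0.031). A minimum of 15 astrocytes per mouse could not be fitted. Replicate numbers name mice and pair none across groups, and the replicate block is the library. Of the log2 differences of members recomputed, 420 kept direction and side of the threshold, 32 lost a call, 7 gained one and 13 turned in sign. With 3 to 10 *Per2* UMIs per NoFR mouse and 0 to 3 of *Ciart*, depth limits these comparisons.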

Other observations

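Hashtags that the list pairs with no mouse marked 8 further sets of at least 30 pericytes (35 to 78 each). Smaller sets among the 538 pericytes with such hashtags are not given. No group is known for the 8 sets and no test was made. Their *Per2* levels in plain CPM were 13.1, 18.3, 9.78, 36.0, 50.4, 12.3, 30.1 and 18.8. Listed mice lay between 69.3 and 77.4 CPM in NoFC, 47.4 and 84.2 in FC, 10.4 and 26.6 in NoFR and 36.6 and 88.6 in FR. The unlisted sets held 194585 to 455947 UMIs each over all genes, so their lower levels rest on few *Per2* UMIs. Their *Per3* levels ran from 6.11 to 41.7 CPM, their *Per1* levels from 24.6 to 64.0 CPM and their *Ciart* levels from 0 to 11.0 CPM. The highest values of *Per2*, *Per3* and *Ciart* were in the same set, hashtag 11 of library 3.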
